A study of Mus musculus with 40 samples.

Results

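The step from day 4 to day 5 of untreated stem cell aggregates was described by setting the 4 untreated day 5 libraries against the 4 untreated day 4 libraries. These 8 libraries, of 40 in all, were picked out by their day and treatment labels, with earlier results of these data known. Every gene of the deposited count table was considered, and those that passed a filter on low counts were tested. The aggregates were made from CGR8, a mouse embryonic stem cell line of strain 129. The medium of all groups was N2B27 without serum, to which Activin-A, Fgf2 and KSR had been added, and the untreated groups received nothing further according to their treatment label. The study set these untreated aggregates beside aggregates given XAV939 between 0 and 72 h. XAV939 blocks tankyrase, which keeps Axin from being degraded and dampens the response to Wnt ligands. Both arms were sampled on 5 days, and the XAV939 libraries of day 4 and day 5 serve below only to test whether the step differed between the arms. Matrigel is named as absent in the titles of the untreated arm and is not mentioned in those of the XAV939 arm. CGR8 is a single line, and RNA of whole aggregates was read, so fewer cells of a kind and less RNA per cell cannot be told apart. The labels do not say whether the 4 libraries of a group came from separate cultures, so the p-values reflect no more than the spread among these 8 libraries and the other 32 of the fit.

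Aggregates of this kind are used as a model of the early embryo. In the embryo, cells of the epiblast enter the primitive streak, where the T-box factors T and Eomes and the homeobox factor Mixl1 come on and epithelial contacts are loosened. Cells that stay in the tail end of the epiblast express Cdx genes and open the Hox clusters from one end to the other, while cells that leave it form presomitic mesoderm, somites and endoderm, and cells further forward form neural tissue.

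Levels are in CPM, the count of a gene relative to a library total scaled by trimmed means of M values (TMM). Changes are log2 fold changes of day 5 over day 4 with their standard errors (SE) from 1 edgeR quasi-likelihood fit of all 40 libraries. A gene was called higher or lower at a Benjamini-Hochberg adjusted p below 0.05 over 16878 tested genes. The 8 libraries held 33027820 to 41018704 counts each. Library 1 of day 4 and library 1 of day 5 stood apart from the others of their day. On the first principal component of the 8 libraries, which held 59.4% of their variance, day 4 library 1 lay at 2.66, between the other day 4 libraries at -69.17 to -55.58 and the day 5 libraries at 23.23 to 77.68. Day 5 library 1 held the highest value on that component. Transcripts of the mitochondrial genome took 1.526% of the counts of day 4 library 1 and 1.354% of day 5 library 1, against 2.51% to 3.27% in the other 6 libraries. In all 10 groups library 1 held between 1.044% and 1.985%, and only 1 of the other 30 libraries was as low. What sets the libraries numbered 1 apart was not tested, and results that rest on them are given with and without them.

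The labelled cells, stem cells in differentiation, showed their markers. Pou5f1, the Oct4 gene of pluripotent cells, was read at 1137, 743, 810 and 506 CPM in day 4 libraries 1 to 4 and at 262, 560, 351 and 424 CPM at day 5. The days overlapped, and Pou5f1 did not pass the test (SE of the log2 fold change 0.586, adjusted p = 0.255), although it passed in a fit of the 8 libraries alone. Sox2, a factor shared by pluripotent and neural cells, was at 33.5 to 36.1 CPM in day 4 libraries 2 to 4 and 28.3 to 30.2 CPM at day 5, and at 5.82 CPM in day 4 library 1. Fgf5, a marker of the primed epiblast, was at 91.6 to 103 CPM in day 4 libraries 2 to 4, at 218 CPM in library 1, and at 73.5 to 148 CPM at day 5.

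Across all genes 1769 were higher and 1379 lower at day 5 (10.5% and 8.17% of those tested, 18.7% in all). Of the higher genes 1098 changed at least 2-fold, 466 at least 4-fold and 188 at least 8-fold, against 700, 149 and 27 of the lower genes. The median log2 fold change over all tested genes was -0.00466. All 4 day 5 libraries lay above all 4 day 4 libraries for 1224 of the higher genes (69.2%), and all lay below for 883 of the lower genes (64%), which was 66.9% of the called genes. Over all tested genes the libraries of the days did not overlap for 19.1%, with day 5 above for 10.2% and below for 8.88%. Leaving out day 4 library 1 raised the calls to 2171 higher and 1726 lower (12.7% and 10.1%, 22.8% in all), with 550 and 452 genes gained and 148 and 105 lost. Leaving out day 5 library 1 reduced them to 1265 higher and 873 lower (7.42% and 5.12%, 12.5% in all), with 531 and 530 genes lost. Without day 4 library 2 there were 1281 higher and 881 lower genes, and without day 4 library 3 there were 1291 and 891. Leaving out day 5 library 3 gave 1365 and 877, so falls of this order were not particular to day 5 library 1. Without library 1 of both days 1671 genes were higher and 1189 lower (9.8% and 6.97%, 16.8% in all), of which 1386 and 1055 were also called with all 8 libraries. In every one of the 8 single leave-outs 1009 higher genes (57%) and 670 lower genes (48.6%) were called, and no gene was called with the opposite sign in any of them.

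**Figure D1:**
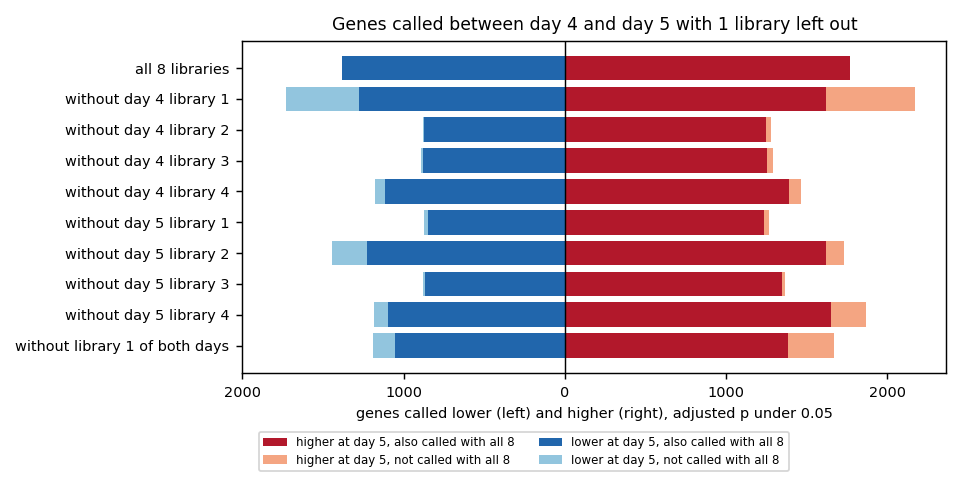
Genes called higher and lower at day 5 with all 8 libraries and with libraries left out. Bars count genes, with higher and lower genes drawn in opposite directions from 0. The shades split genes that were also called with all 8 libraries from genes that were not. Calls rose to 2171 and 1726 without day 4 library 1 and fell to 1265 and 873 without day 5 library 1.

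How far each library had moved along the step was measured with that library left out. Genes called without it and changed by at least 1 on the log2 scale were used, 0% being the mean of the other day 4 libraries and 100% the mean of the other day 5 libraries; this measure was chosen after the values were seen. The median of the higher genes was 47.3% for day 4 library 1 and that of the lower genes 72.9%. The other day 4 libraries lay between -12.9% and 3.69% for higher genes and between -29.9% and 6.02% for lower genes. Their 0% mark, and that of each day 5 library, takes in day 4 library 1, and each library has its own set of genes. The positions are therefore not on 1 common scale. Day 5 library 1 lay past the others of its day at 133% and 128%, with day 5 library 4 at 65.4% and 79.5%. Day 4 library 1 was not advanced alike in all gene groups. Its median was 115% for 12 primitive streak genes, 95.6% for 9 Wnt targets and 91% for 13 Cdx and caudal epiblast genes. Smaller lists reached as far, with medians of 113% for 5 naive pluripotency genes, 111% for 4 stress response genes, 103% for 5 genes of ERK feedback and 96.6% for 5 endothelial and blood genes. For 12 Hox genes of groups 1 to 4 it was 7.99%, for 6 somite genes 10.2% and for 11 neural progenitor genes -3.36%. In day 5 library 1 the somite genes lay at 201%, the Notch pathway at 176% and presomitic genes at 175%.

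**Figure D2:**
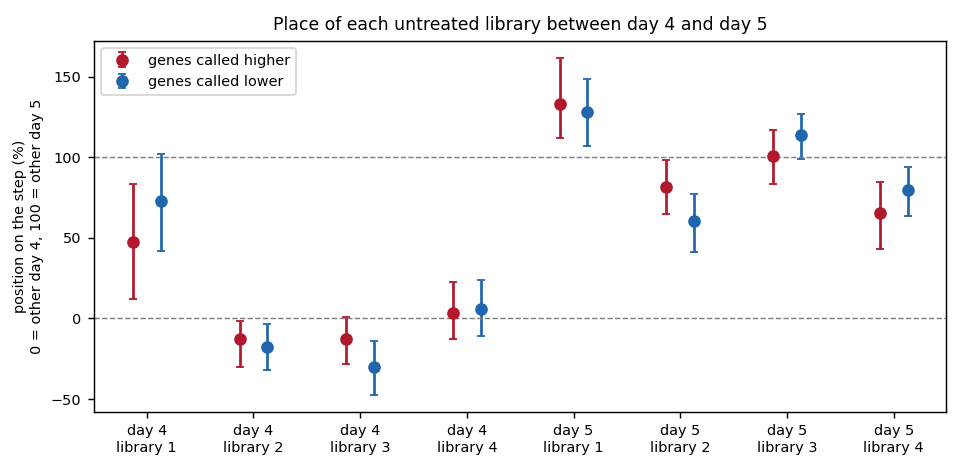
Position of each untreated library on the step, in percent, with 0 at the mean of the other day 4 libraries and 100 at the mean of the other day 5 libraries; points are medians over genes and bars their quartiles, for genes higher and genes lower at day 5. Day 4 library 1 sits at 47.3% and 72.9%, away from the other day 4 libraries, and day 5 library 1 at 133% and 128%.

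The Hox genes, which give cells their position along the body axis, carried the widest changes of the step. All 12 tested genes of Hox groups 1 to 4 were higher at day 5, with a median log2 fold change of 6.03, and 10 of 11 of groups 5 to 8. These counts were 12 and 10 without day 4 library 1, without day 5 library 1 and without both. Hoxb1 (chromosome 11, 96365752 to 96368256, mm10) was at 5.44, 1.89, 0.272 and 0.656 CPM in day 4 libraries 1 to 4 and at 98.4, 43.2, 35.8 and 54.9 CPM at day 5. Every day 5 library stood above every day 4 library, and library 1 was the highest of both days. Its log2 fold change was 4.81 (SE 0.569, adjusted p = 2.62e-07), and 5.93 without day 4 library 1. Hoxb2 stood at 0.0605 to 0.403 CPM and then at 28.6, 12.2, 8.62 and 18.9 CPM, the smallest adjusted p of the Hox genes (log2 fold change 6.24, SE 0.497, adjusted p = 2.56e-10). Hoxa3 rose by 5.13 (SE 0.52, adjusted p = 2.41e-08), and by 6.04 without day 4 library 1. Whether the counting used strand is not stated, so reads of Hoxa3 may be mixed with those of its antisense partners Hoxaas2 and Hoxaas3, and reads of Hoxb2 and Hoxb3 with those of Hoxb3os. All 3 antisense genes were also called higher.

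Genes further along the clusters were low in all day 4 libraries and highest in day 5 library 1. Hoxb9 (chromosome 11, 96271457 to 96276595) was at 0.0605 to 0.23 CPM at day 4 and at 75, 10.2, 7.49 and 7.29 CPM in day 5 libraries 1 to 4. It rose by 7.55 (SE 0.83, adjusted p = 8.27e-08), and by 5.97 without day 5 library 1. Hoxb8 had 3 counts over the day 4 group, so no fold is given; it reached 31.2 CPM in day 5 library 1 and 3.05 to 4.73 CPM in the others. Hoxd3, Hoxd4, Hoxb5, Hoxc5 and Hoxa9 had 0 counts in all 4 day 4 libraries. With 3 counts over the whole day 4 group as the floor, which covers counting error only, Hoxd3 was at least 177-fold higher, Hoxd4 114-fold, Hoxc5 46.9-fold, Hoxb5 32.4-fold and Hoxa9 15.7-fold. Exons of Hoxd3 and Hoxd4 overlap on the same strand, as do those of Hoxc5 and Hoxc10, so their reads may be shared. Hoxd3 and Hoxd4 also overlap the antisense gene Hoxd3os1, and Hoxb5 overlaps Hoxb5os. The median of groups 5 to 8 was 7.63 as fitted and 5.22 with such genes at their bounds. Of groups 9 to 13 only 5 of 16 genes passed the filter on low counts, and 3 were called higher, or 2 without day 5 library 1.

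**Figure D3:**
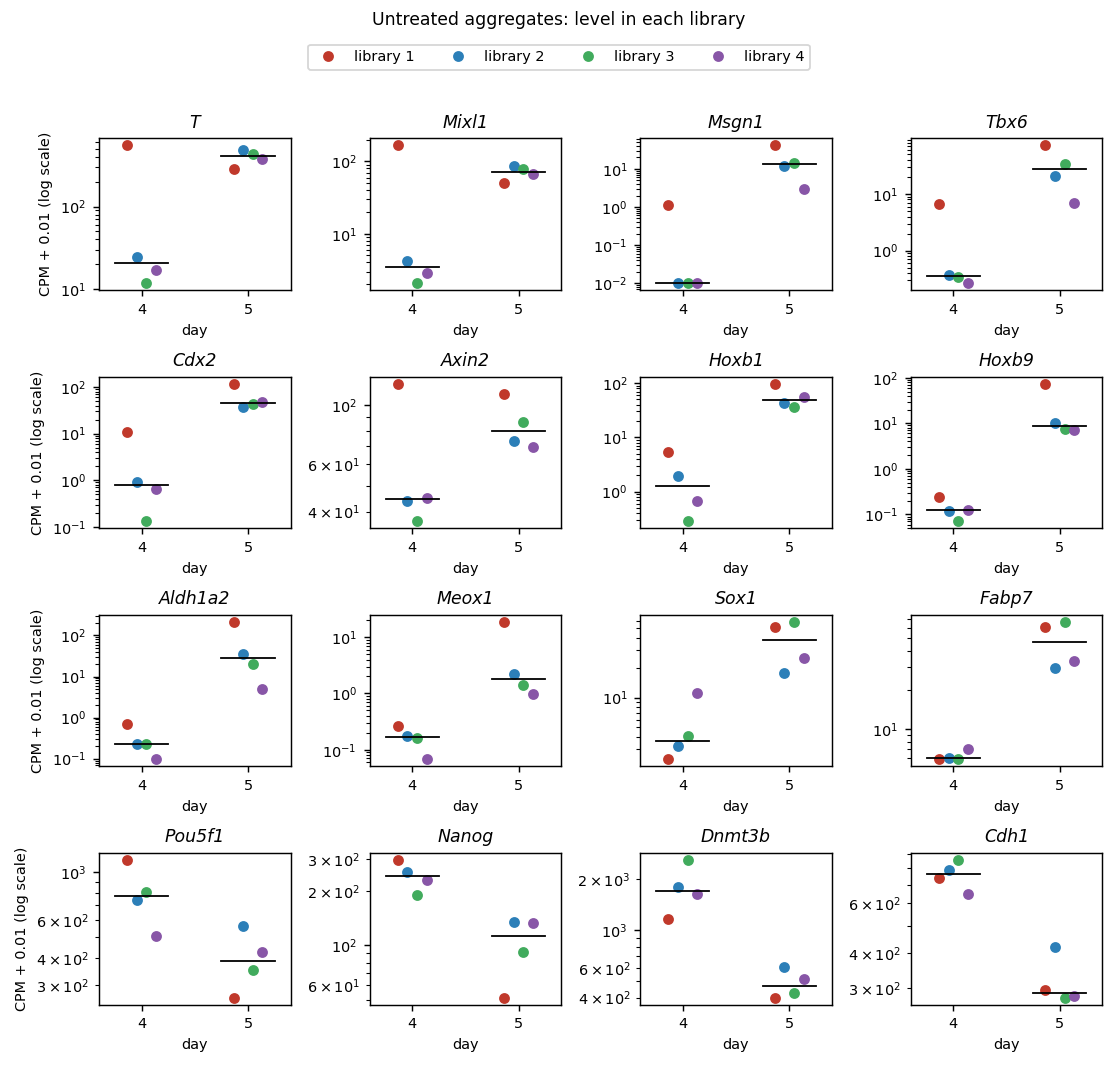
Levels of 16 genes in the 8 libraries, in CPM on a log axis (0.01 CPM added), with 1 numbered point for each library and a black bar at the median of each day. Hoxb9 is at or under 0.23 CPM in every day 4 library, whereas T and Mixl1 are high in day 4 library 1 alone among the day 4 libraries.

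Genes of the primitive streak were those in which day 4 library 1 differed most from its group. T (chromosome 17, 8434423 to 8442496), which marks the streak and the mesoderm leaving it, was at 550, 24.6, 11.8 and 17.2 CPM in day 4 libraries 1 to 4. At day 5 it was at 283, 490, 435 and 372 CPM. Day 4 library 1 thus lay above all day 5 libraries, and the other 3 lay below all of them. With all libraries T did not pass the test (log2 fold change 1.39, SE 0.707, adjusted p = 0.178), and without day 4 library 1 it rose by 4.47 (adjusted p = 4.31e-07). Mixl1, at 167, 4.17, 2.06 and 2.82 CPM and then 50.9 to 85.6 CPM, followed the same order, with 0.67 (adjusted p = 0.618) and 4.54 without that library (adjusted p = 1.35e-06). Eomes, at 343, 133, 81.9 and 106 CPM and then 83.5 to 170 CPM, was not called with or without it (log2 fold change -0.58 and 0.06). Nodal, the ligand that induces the streak, was at 42.1 to 84.5 CPM at day 4 and 22.3, 56, 21.1 and 26.9 CPM at day 5. It was not called with all libraries (-1.03, adjusted p = 0.0748), and was called lower without day 5 library 2 (-1.46, adjusted p = 0.0164).

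Of the 19 streak and mesendoderm genes 5 were called higher and none lower (median 1.11). This count was 14 without day 4 library 1 (median 3.02), 2 without day 5 library 1, and 13 without both, and it was 2 or 3 without any of day 4 libraries 2, 3 and 4 or day 5 library 3. Lhx1, a homeobox factor of the anterior streak, passed in all 8 leave-outs. It was at 58.6 CPM in day 4 library 1, at 0.212 to 0.371 CPM in the other day 4 libraries, and at 126, 134, 121 and 36 CPM at day 5. Day 4 library 1 lay above day 5 library 4, and the other day 4 libraries lay below all day 5 libraries. Its log2 fold change was 2.81 (SE 0.848, adjusted p = 0.0172), and 8.39 without day 4 library 1. Cer1, a secreted inhibitor of Nodal, BMP and Wnt, was at 9.45 CPM in day 4 library 1 and at most 0.057 CPM in the other 3, against 12.6 to 66 CPM at day 5 (4.09, SE 0.973, adjusted p = 0.00254). Those 3 libraries hold 2 counts of Cer1 in all, so no fold is given without day 4 library 1. Chrd, an inhibitor of BMP, was at 35.6 CPM in day 4 library 1, at 2.87 to 3.48 CPM in the others and at 17.4 to 38 CPM at day 5. It was called only without day 4 library 1 or without both libraries numbered 1, at 3.02 and 3.14.

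Among 16 Cdx and caudal epiblast genes 7 were higher and none lower, and 13 were higher without day 4 library 1 and 6 without day 5 library 1. Cdx2, which acts upstream of posterior Hox genes, was at 10.7, 0.918, 0.121 and 0.627 CPM at day 4 and at 119, 37.7, 42.5 and 47.3 CPM at day 5. The days did not overlap, and library 1 was the highest of each. Cdx2 rose by 4.31 (SE 0.757, adjusted p = 0.00012), by 6.77 without day 4 library 1 and by 3.77 without day 5 library 1. Nkx1-2, a marker of the caudal epiblast, was at 340, 110, 57.6 and 119 CPM and then at 415, 285, 331 and 430 CPM. It was called without day 4 library 1 (1.94, adjusted p = 0.0133, against 1.22, adjusted p = 0.12). Epha5, an ephrin receptor, rose in all 8 leave-outs, from 1.27 to 1.68 CPM up to 3.98 to 8.75 CPM (1.95, SE 0.322, adjusted p = 4.44e-05).

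Of 16 presomitic mesoderm and segmentation genes 11 were higher and none lower, with a median of 1.96. The count was 13 without day 4 library 1, 9 without day 5 library 1 and 10 without both. Msgn1, a factor of presomitic cells, had 1.12 CPM in day 4 library 1 and 0 counts in the other day 4 libraries, against 41.5, 12.1, 14.1 and 3.05 CPM at day 5. It was called with all libraries (5.96, SE 1.23, adjusted p = 0.000839), and without day 4 library 1 it was at least 614-fold higher than the same floor. Tbx6, the T-box factor of paraxial mesoderm, was at 6.54 and at 0.257 to 0.362 CPM in day 4 library 1 and the others, and then at 72.1, 20.8, 34.2 and 6.84 CPM. The lowest day 5 library stood just above day 4 library 1. Tbx6 rose by 4.16 (SE 0.801, adjusted p = 0.00029), by 6.71 without day 4 library 1 and by 3.46 without day 5 library 1. Dll1, the Notch ligand of the presomitic mesoderm, was even across day 4, at 7.34 to 8.61 CPM, and spread at day 5, at 131, 46.1, 55.6 and 24.3 CPM. It rose by 3.01 (SE 0.424, adjusted p = 4.47e-06), and by 2.40 without day 5 library 1. Rspo3, a secreted enhancer of Wnt signalling, rose by 2.42 (SE 0.392, adjusted p = 3.44e-05).

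Of 16 somite and paraxial genes 9 were higher and 1, Tbx18, lower, with a median of 1.78. Without day 4 library 1 these counts were 8 and 2, and without day 5 library 1 they were 7 and 0. Tbx18, under 1 CPM in all 8 libraries, kept its call in no single leave-out but that of day 4 library 1. Aldh1a2 (chromosome 9, 71215789 to 71296243), the main enzyme that makes retinoic acid in the early embryo, was at 0.0855 to 0.691 CPM at day 4. At day 5 it was at 216, 35, 20.7 and 4.82 CPM. The days did not overlap, but the day 5 libraries themselves spread widely and library 1 lay far above the rest. Aldh1a2 rose by 7.82 (SE 0.871, adjusted p = 8.88e-08), and by 6.04 without day 5 library 1 and 8.61 without day 4 library 1. Meox1, a homeobox factor of somites, was at 0.057 to 0.259 CPM and then at 18.8, 2.19, 1.41 and 0.947 CPM. Its log2 fold change of 5.16 (SE 0.743, adjusted p = 6.55e-06) became 3.24 without day 5 library 1. Foxc1, a forkhead factor of paraxial mesoderm, rose by 4.02 (SE 0.55, adjusted p = 2.86e-06), by 4.85 without day 4 library 1 and by 3.17 without day 5 library 1.

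Epithelial genes fell together. Of 18 tested junction, keratin and epithelial regulator genes 14 were lower and 1 higher, with a median of -1.20, against 8.17% lower among all genes. The lower genes numbered 14 without day 4 library 1, 12 without day 5 library 1 and 11 without both. Cdh1 (chromosome 8, 106603351 to 106670246), which encodes E-cadherin, was at 736, 786, 857 and 646 CPM in day 4 libraries 1 to 4 and at 297, 419, 278 and 282 CPM at day 5. The days did not overlap, and day 4 library 1 lay among its group. Cdh1 fell by 1.24 (SE 0.264, adjusted p = 0.00086), and by 1.26 without day 4 library 1. Grhl2, a transcription factor of epithelia, was at 44.9 to 65.9 CPM and then 13.6 to 30 CPM (-1.49, SE 0.234, adjusted p = 2.11e-05). Rab25, a GTPase of epithelial membrane recycling, was at 22.4 to 35.9 CPM and then 5.08 to 11.2 CPM (-1.96, SE 0.322, adjusted p = 4.19e-05). The tight junction genes Cldn3 and Cldn4 fell by 2.38 and 2.08, and these 4 genes and Cdh1 were called in every leave-out. Cldn6, Esrp1 and Esrp2 were each lost in some: Cldn6 without day 4 library 2 or 3 or day 5 library 3 or 4, Esrp1 without day 5 library 1 or 3, and Esrp2 without day 4 library 2 or 3 or day 5 library 1, 3 or 4. The gene that rose was Grhl3, from 1.31 to 4.41 CPM up to 5.11 to 22.7 CPM (2.14, SE 0.453, adjusted p = 0.000844).

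Because these genes fell together, the bases before their start sites were searched for the E-box CAGGTG on both strands, the sequence that zinc finger repressors of the Snail and Zeb families are known to bind. Of the 14 lower genes 9 are in the RefSeq promoter table (GRCm38.p6). In the 250 bases before the start 6 of the 9 (66.7%) held it, against 22.9% of all genes called lower, 14.2% of genes called higher and 16.2% of tested genes. With the 50 bases after the start added, the shares were 88.9%, 25.7%, 16.6% and 18.7%. A T-box motif, AGGTGTNA, can overlap this E-box. In all 4 motifs were searched, also in the called members of other lists, and the E-box was chosen for display after the shares were seen. In the 250 bases before the start, 3 of 6 endoderm and gut genes called higher (50%) held it. So did 3 of 7 core and primed pluripotency genes called lower (42.9%) and 2 of 5 streak genes called higher (40%). The remaining lists held it in 0% to 33.3%. A match is a description of the letters and no evidence of binding. The promoters of 4 genes with a match and of Cldn7, which has none in this window, are printed 5′ to 3′ on the gene's strand, ending at the base before the start, with CAGGTG or its reverse complement CACCTG in capitals.
Rab25: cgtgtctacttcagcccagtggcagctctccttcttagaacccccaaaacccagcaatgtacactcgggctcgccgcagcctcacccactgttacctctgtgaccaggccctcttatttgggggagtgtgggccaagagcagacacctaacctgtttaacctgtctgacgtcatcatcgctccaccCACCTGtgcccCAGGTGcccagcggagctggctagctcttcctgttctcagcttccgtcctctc
Cldn4: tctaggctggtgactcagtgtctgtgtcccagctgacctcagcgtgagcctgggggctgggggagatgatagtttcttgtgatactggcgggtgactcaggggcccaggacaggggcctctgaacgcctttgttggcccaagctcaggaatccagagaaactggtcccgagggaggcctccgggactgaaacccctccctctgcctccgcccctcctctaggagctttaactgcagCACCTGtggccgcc
Tjp3: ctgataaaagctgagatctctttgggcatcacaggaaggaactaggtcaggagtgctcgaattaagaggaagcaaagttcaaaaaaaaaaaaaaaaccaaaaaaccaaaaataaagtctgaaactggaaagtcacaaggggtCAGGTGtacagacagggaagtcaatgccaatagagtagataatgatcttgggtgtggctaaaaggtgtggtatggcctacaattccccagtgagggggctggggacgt
Epcam: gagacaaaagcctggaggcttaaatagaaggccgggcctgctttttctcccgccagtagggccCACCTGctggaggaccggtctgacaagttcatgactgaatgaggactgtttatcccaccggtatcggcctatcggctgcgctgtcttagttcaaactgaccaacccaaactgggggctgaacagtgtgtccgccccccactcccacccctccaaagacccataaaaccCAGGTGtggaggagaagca
Cldn7: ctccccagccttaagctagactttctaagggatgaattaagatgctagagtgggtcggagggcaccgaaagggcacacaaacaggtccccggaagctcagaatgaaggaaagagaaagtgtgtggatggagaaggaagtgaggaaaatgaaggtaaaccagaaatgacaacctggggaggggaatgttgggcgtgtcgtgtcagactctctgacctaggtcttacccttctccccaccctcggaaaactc
Rab25 (chr3:88548280-88548529, minus strand) holds its matches from 64 and 53 bases before the start. Cldn4 (chr5:134946935-134947184, minus strand) holds 1 from 14 bases before it, and Tjp3 (chr10:81291582-81291831, minus strand) 1 from 108 bases before it. Epcam (chr17:87635729-87635978, plus strand) holds 2, from 187 and 19 bases before it, and the window of Cldn7 lies at chr11:69964529-69964778 on the plus strand. Tjp3, a tight junction scaffold, fell by 1.90, the adhesion gene Epcam by 1.04 and the claudin gene Cldn7 by 1.73. Cdh1, Grhl2, St14, Esrp1 and Esrp2 are not in the RefSeq promoter table and were not searched. Cldn3, Ocln, Crb3 and Cldn6 were searched and are not printed. In the 250 bases before the start Cldn3 and Ocln held no match, as Cldn7, and Crb3 and Cldn6 did hold one or more.

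Of 14 tested genes of mesenchyme and the epithelial to mesenchymal transition 8 were higher and none lower (median 1.11), or 10 without day 4 library 1, 6 without day 5 library 1 and 5 without day 4 library 2. Cdh2, which encodes N-cadherin, was at 87.6, 35, 33.9 and 55.7 CPM and then at 301, 215, 228 and 169 CPM. The days did not overlap, and library 1 was the highest of each. Cdh2 rose by 2.11 (SE 0.259, adjusted p = 4.99e-07). Zeb1, a repressor of epithelial genes, rose from 2.72 to 7.19 CPM up to 16.8 to 25.7 CPM (2.43, SE 0.393, adjusted p = 3.15e-05). Fn1, which encodes fibronectin, rose by 1.69 (SE 0.301, adjusted p = 0.000113), although its 522 CPM in day 4 library 1 exceeded the 420 CPM of day 5 library 4.

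Of 19 genes of core and primed pluripotency 8 were lower and 1, the ephrin receptor gene Epha2, higher, with a median of -0.98 without day 4 library 1 and -0.91 without day 5 library 1. The lower genes numbered 10 without day 4 library 1, and 5 without day 4 library 3, day 5 library 1 or day 5 library 3. Dnmt3b, a de novo DNA methyltransferase of the epiblast, was at 1165, 1796, 2604 and 1627 CPM and then at 400, 606, 426 and 513 CPM. The days did not overlap, and Dnmt3b fell by 1.89 (SE 0.254, adjusted p = 2.12e-06). Dnmt3a and Tet1, its relative and a demethylating enzyme, fell by 0.89 and 0.99 (adjusted p = 0.00062 and 0.00278), and the 3 were the only called members of 8 DNA methylation enzymes. Nanog was at 297, 253, 189 and 229 CPM and then at 51.2, 135, 91.7 and 133 CPM, without overlap. It fell by 1.24 (SE 0.393, adjusted p = 0.0235), a call that was lost without day 5 library 1 (adjusted p = 0.106), day 4 library 2 or day 5 library 3. Utf1, a chromatin factor of pluripotent cells, fell by 2.66 (SE 0.55, adjusted p = 0.000655), and by 3.27 without day 5 library 2.

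Of 15 naive pluripotency genes only Gbx2 was called with all libraries, at 8.16 to 36.1 CPM and then 32.7 to 70.1 CPM (1.36, adjusted p = 0.02), and it was lost without day 4 library 2 or 3 or day 5 library 1 or 3. Leaving out day 4 library 1 gave 2 higher and 3 lower naive genes, where 12.7% of all tested genes were higher and 10.1% lower. The lower count was also 3 without day 5 library 2. With day 5 library 1 left out 0 naive genes were called, and without library 1 of both days 2 were higher and 0 lower. Dnmt3l, a cofactor of the DNA methyltransferases, and Dppa4, a chromatin factor of stem cells, were lowest of day 4 in library 1, and neither was called with all libraries. Dnmt3l was at 0.173 CPM in day 4 library 1 and 7.38 to 16.2 CPM in the others, and at 0.777 CPM in day 5 library 1 and 0.989 to 9.65 CPM in the others. Dppa4 was at 2.65 CPM in day 4 library 1 against 20.5 to 45.7 CPM, and at day 5 it was at 2.09 and 1.81 CPM in libraries 1 and 3 against 18.4 and 8.97 CPM in libraries 2 and 4.

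Of 16 retinoic acid genes 10 were higher and 1, Dhrs3, lower (median 1.36), with 9 and 0 without day 4 library 1, 7 and 0 without day 5 library 1 and 6 and 0 without both. Crabp1, which binds retinoic acid in the cytoplasm, was at 2.62, 1.53, 2.06 and 3.19 CPM and then at 141, 108, 59.5 and 109 CPM. Every day 5 library stood well above every day 4 library, and day 4 library 1 was not apart. Crabp1 rose by 5.47 (SE 0.489, adjusted p = 3.36e-09), with 5.53 and 5.29 without library 1 of day 4 and of day 5. Stra6, a retinol carrier receptor, rose by 2.89 (SE 0.368, adjusted p = 9.14e-07), or 2.24 without day 5 library 1, which held 37.5 CPM against 10.7 to 12.6 CPM. Cyp26a1, which degrades retinoic acid, was at 3.14 to 13.9 CPM and then 14.9 to 48.4 CPM, just without overlap (2.18, SE 0.465, adjusted p = 0.000916).

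Of the Notch pathway 10 of 17 genes were higher and none lower (median 1.20), and 8 without day 5 library 1. Jag1, a Notch ligand, rose by 1.60 (SE 0.248, adjusted p = 1.85e-05). Hes7, the oscillating repressor of the segmentation clock, was at 0.374 CPM in day 4 library 1 and at most 0.0285 CPM in the others, and then at 20.3, 6.47, 10.9 and 2.05 CPM (6.57, SE 1.03, adjusted p = 2.02e-05), or 5.96 without day 5 library 1. Day 4 libraries 2 to 4 hold 1 count of it.

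Among 19 Wnt ligands 6 were higher and 1 lower, and 9 were higher without day 4 library 1 and 5 without day 5 library 1. Wnt5a was at 11.9, 5.93, 4.81 and 6.16 CPM and then at 52.9, 22.2, 27.4 and 16.9 CPM, without overlap (2.05, SE 0.337, adjusted p = 4.07e-05). The ligand that was lower, Wnt10b (-3.93, adjusted p = 0.00341), was named after its value was seen and was lost without day 4 library 4 (-2.59, adjusted p = 0.0695). Of 17 Wnt targets and feedback genes 5 were higher (median 0.63). The count was 10 without day 4 library 1, 9 without both libraries numbered 1, and 3 without day 4 library 2, 3 or 4 or day 5 library 1. Lgr5, a receptor of R-spondins, was at 5.7 and 1.6 to 1.84 CPM in day 4 library 1 and the others, and then at 6.97 to 15.6 CPM (2.13, SE 0.332, adjusted p = 2.05e-05). Dkk1, a secreted Wnt inhibitor, rose by 2.17 (SE 0.52, adjusted p = 0.00276), and both genes rose more without day 4 library 1, by 2.80 and 3.64. Axin2, a feedback inhibitor, was at 120 CPM in day 4 library 1 and was called without it (1.02, adjusted p = 0.00744, against 0.46, adjusted p = 0.316).

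Of 11 tested FGF ligands 4 were higher, or 5 without day 4 library 1 and 3 without day 5 library 1. Fgf10 was at 1.58, 0.362, 0.514 and 0.57 CPM and then at 23.1, 11.1, 17.4 and 8.24 CPM, without overlap (4.30, SE 0.442, adjusted p = 3.09e-08), and rose by 4.95 without day 4 library 1. Fgf3 rose by 3.78 (SE 0.483, adjusted p = 9.82e-07), or 3.16 without day 5 library 1. Fgf8, which is made in the streak, was at 42.7 CPM in day 4 library 1, at 4.11 to 6.79 CPM in the other 3 and at 25.6 to 36.1 CPM at day 5, and was called without day 4 library 1 (2.51, adjusted p = 0.00056, against 1.10, adjusted p = 0.177). Of 14 genes of ERK feedback 6 were higher, but this count was 8 without day 4 library 1, 0 without day 4 library 2 or 3, 2 without day 4 library 4, and 1 without day 5 library 1 or 3. Of 17 BMP ligands and targets 8 were higher and 1, the inhibitor Smad7, lower, or 11 and 1 without day 4 library 1 and 6 and 0 without day 5 library 1; Smad7 lost its call without day 5 library 1 or 3. The BMP target Id2 rose from 10.9 to 19.8 CPM up to 22.4 to 55.6 CPM (1.31, SE 0.266, adjusted p = 0.000518). Of 16 notochord and hedgehog genes 7 were higher, or 11 without day 4 library 1 and 5 without day 5 library 1. Shh, the ligand, and Noto, a notochord factor, stayed low: Shh was at no more than 0.23 CPM at day 4 and 0.368 to 1.67 CPM at day 5 (3.83, SE 0.701, adjusted p = 0.000194), and Noto at no more than 0.749 CPM and then 1.5 to 3.18 CPM (3.52, SE 0.85, adjusted p = 0.00321). Day 4 libraries 2 to 4 hold 2 counts of each.

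**Figure D4:**
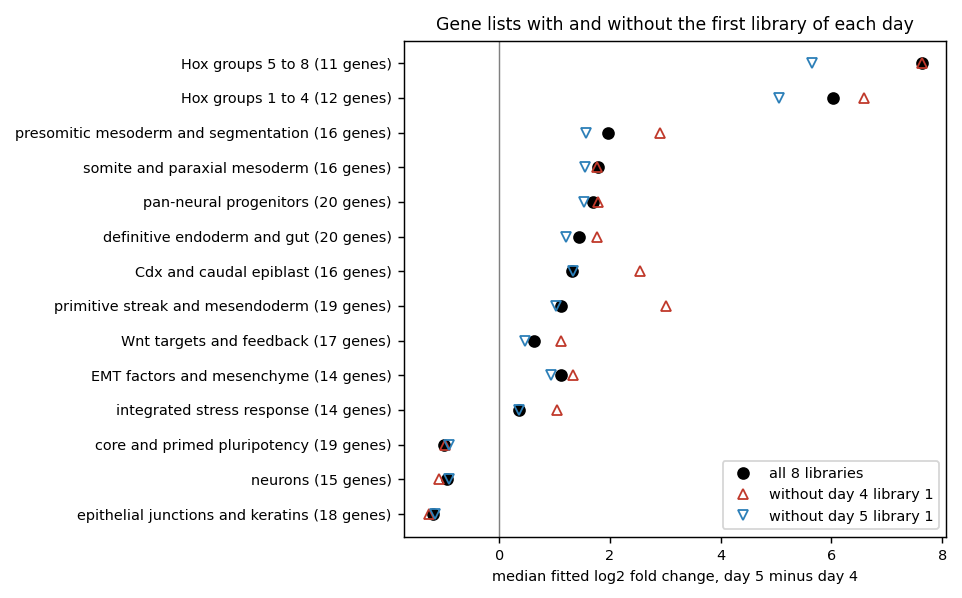
Median fitted log2 fold change of 14 gene lists (horizontal axis), with all 8 libraries, without day 4 library 1 and without day 5 library 1. The streak list moves from 1.11 to 3.02 without day 4 library 1, whereas the epithelial list stays between -1.27 and -1.16.

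Neural progenitor genes rose in part. Of 20, 11 were higher and 2 lower (median 1.70), with 10 and 2 without day 4 library 1 and 9 and 1 without day 5 library 1. Fabp7, a lipid carrier of neural progenitors, was at 5.85, 6.01, 5.9 and 6.99 CPM and then at 60.5, 29.3, 66.7 and 33.5 CPM. The 4 day 4 libraries, library 1 included, were nearly level and all lay below day 5. Fabp7 rose by 2.94 (SE 0.369, adjusted p = 7.21e-07). Sox1, an early neural factor, was at 2.36, 3.26, 4.08 and 11.1 CPM and then at 51.7, 17.7, 58.5 and 25.3 CPM (2.88, SE 0.486, adjusted p = 5.67e-05), and rose by 3.57 without day 4 library 4. Olig3, a factor of the dorsal neural tube, was highest in day 5 library 4 at 34.7 CPM and lowest in day 5 library 1 at 11.9 CPM, against 0.121 to 1.12 CPM at day 4 (4.60, SE 0.584, adjusted p = 1.26e-06). Pou3f1, a factor of the early neural epiblast, fell by 1.50 (SE 0.312, adjusted p = 0.000676), while its relative Pou3f2 rose by 3.16 (SE 0.533, adjusted p = 5.67e-05). Pax6, at no more than 1.76 CPM in any library, was not called.

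Midbrain and hindbrain genes were higher for 7 of 12, or 4 without day 5 library 1. Egr2, which marks hindbrain segments, was at 0.864 CPM in day 4 library 1 and 0.2 to 0.223 CPM in the others, and then at 4.26 to 8.34 CPM (3.83, SE 0.579, adjusted p = 1.29e-05), or 4.65 without day 4 library 1. Of 15 tested forebrain genes 5 were higher and 1, Otx2, lower. The higher ones numbered 2 without day 4 library 2, and 3 without day 4 library 3 or 4 or day 5 library 1 or 3. Of 15 neuronal genes 1, Isl1, was higher and 3 lower, or 5 lower without day 4 library 1 and 2 lower without day 5 library 1. Elavl3, an RNA-binding protein of neurons, was at 1.7, 10.5, 19.2 and 11.9 CPM and then at 1.28 to 3.29 CPM, with day 4 library 1 among the day 5 values (-2.36, SE 0.511, adjusted p = 0.00106). Of 14 neural crest and border genes 5 were higher and 1, Foxd3, lower, or 3 higher without day 4 library 2 or day 5 library 1. Zic1 rose from 0.259 to 0.428 CPM up to 3.98 to 6.05 CPM (3.81, SE 0.8, adjusted p = 0.000777).

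Of 20 endoderm and gut genes 12 were higher and 3 lower (median 1.44), with 11 and 3 without day 4 library 1 and 9 and 3 without day 5 library 1. The 3 lower ones, Cdh1, Epcam and Cldn6, are also in the epithelial list. Sox17, a factor of definitive endoderm, was at 1.99, 0.111, 0.0605 and 0 CPM and then at 15.3, 14.4, 10.5 and 1.95 CPM. Day 5 library 4 was as low as day 4 library 1. Sox17 rose by 4.28 (SE 0.678, adjusted p = 2.51e-05), and by 7.43 without day 4 library 1. Cxcr4, the chemokine receptor of definitive endoderm and mesoderm, rose by 3.96 (SE 0.515, adjusted p = 1.24e-06), or 4.59 without day 4 library 1. Foxa2, at 31.9 CPM in day 4 library 1, 2.57 to 3.28 CPM in the others and 19.2 to 45.6 CPM at day 5, passed narrowly with all libraries (1.52, adjusted p = 0.0453). It rose by 3.30 without day 4 library 1 and was lost in the leave-outs of day 4 libraries 2, 3 and 4 and day 5 libraries 1, 2 and 3. Of 16 cardiac mesoderm genes 5 were higher and 1, Actc1, lower, or 4 higher without day 5 library 1 and 3 higher without day 4 library 2 or 3 or day 5 library 3. Actc1 lost its call without day 5 library 1 or 3 and without both libraries numbered 1. Of the 16 cardiac genes 8 stayed under 1 CPM in all 8 libraries. Of 17 tested endothelial and blood genes 3 were higher and none lower, or 1 higher without day 4 library 2 or 3 or day 5 library 1. The called share was 17.6%, against 18.7% of all tested genes called either way and 10.5% called higher. The median was 0.18, and 11 of the 19 listed members stayed under 1 CPM in all 8 libraries. Flt1, a receptor of VEGF, rose by 1.91 (SE 0.342, adjusted p = 0.000124), although 21.8 CPM in day 4 library 1 exceeded 17.5 CPM in day 5 library 4.

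Beyond the lists, the widest changes without overlap and with at least 5 CPM were mostly Hox genes and their antisense RNAs among the rises. Arg1, which encodes arginase, was at 0.173 CPM in day 4 library 1 and at most 0.0285 CPM in the others, and then at 18.8, 5.58, 2.29 and 2.11 CPM (7.05, adjusted p = 7.83e-08), or 5.96 without day 5 library 1. Among the falls, Far2, which makes fatty alcohols, was at 2.33, 7.43, 12 and 7.47 CPM and then at 0.119 to 0.684 CPM (-4.02, adjusted p = 4.66e-08). Its exons overlap Ergic2 and Far2os2 on the other strand. Pla2r1, a phospholipase receptor, fell by 3.74, the prohormone convertase gene Pcsk2 by 3.19 and the forkhead gene Foxi3 by 3.15. Cxcl12, the ligand of Cxcr4, was at 45.8, 114, 141 and 120 CPM and then at 5.82, 13.2, 8.62 and 25.3 CPM (-2.99, adjusted p = 1.52e-05). For these 5 falling genes day 4 library 1 was the lowest of its day and still stood above every day 5 library. Among genes that depended on day 5 library 1 were Pcdh19, a protocadherin at 96.9 CPM there and 10.6 to 19.6 CPM in the others (2.66, and 1.51 without it), and Cited1, a transcriptional coregulator at 26.9 CPM there and 2.21 to 5.74 CPM in the others (2.84, and 1.66 without it). Leaving that library out added 27 higher and 24 lower genes.

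Markers of other cells were summed for each library. Trophoblast genes summed to 379 CPM in day 4 library 1, 88.7 to 145 CPM in the other day 4 libraries and 151 to 239 CPM at day 5. The defining markers Prl3d1 and Tpbpa were at 0 in all 8 libraries, and 8 of the 12 members stayed under 1 CPM. Integrated stress response genes summed to 3853 CPM in day 4 library 1, 1601 to 1998 CPM in the other day 4 libraries and 2433 to 3104 CPM at day 5. With all libraries 2 of these 14 genes were higher, with 8 higher without day 4 library 1 and 0 without any of day 4 libraries 2, 3 and 4 or day 5 libraries 1 and 3. Naive pluripotency genes summed to 98 to 182 CPM at day 4 and 125 to 163 CPM at day 5. Primordial germ cell genes summed to 111 to 203 CPM and 129 to 186 CPM, extraembryonic endoderm genes to 86.5 to 136 CPM and 106 to 168 CPM, and fibroblast genes to 24.6 to 36.6 CPM and 20.2 to 33.1 CPM. Genes of 2-cell-like cells summed to at most 1.21 CPM and none was tested. The trophoblast and stress sums moved with day 4 library 1, and their part in its streak and Wnt values was not tested. Across the day 4 libraries the trophoblast sum ran in the same order as Eomes, given above among the streak genes. It is therefore not read as a signal separate from that gene.

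The step was then set beside the same step in aggregates that had received XAV939. There 2679 genes were higher and 2561 lower (15.9% and 15.2%, 31% in all). Of the genes higher in the untreated step 72.7% were also higher with XAV939, and these made up 48% of the XAV939 calls. Of the lower genes 85.5% were also lower, which was 46% of those calls. The test of the difference between the steps, without a replicate block, called 0 genes with edgeR, and its smallest adjusted p was 0.141. In it 844 genes had an unadjusted p under 0.05 (844 of 16878 is the share that p-values spread evenly would give). DESeq2 called 31 genes with a more positive and 6 with a more negative untreated step. Within a day, libraries of the 2 arms that share a replicate number deviated together. With that number as a block within each day, 2018 genes had an unadjusted p under 0.05 in edgeR, against the same even share of 844. In this blocked test 71 genes were called with a more positive and 11 with a more negative untreated step. Leaving out day 5 untreated library 4 gave 36 and 0 without a block, and every other single leave-out, of either arm, gave 0.

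Among the genes of the blocked test, chosen for naming after their values were seen, Cyp26a1 differed most plainly. In untreated aggregates it rose from 3.14 to 13.9 CPM up to 14.9 to 48.4 CPM. In XAV939 aggregates it was at 25.6, 6.62, 7.09 and 7.94 CPM at day 4 and 6.15, 12.2, 8.93 and 6.12 CPM at day 5. The steps differed by 2.56 (SE 0.295, adjusted p = 0.000325 with the block and 0.169 without). Cldn6 fell by 0.94 in untreated aggregates and by 2.80 in XAV939 aggregates, a difference of 1.79 (adjusted p = 0.000325 with the block and 0.232 without). Egfr, the EGF receptor gene, was at 5.84 to 8.09 CPM and then 3.82 to 7.66 CPM in untreated aggregates, and rose by 1.54 in XAV939 aggregates, a difference of -1.81 (adjusted p = 0.00567 with the block and 0.168 without). Epithelial genes were lower for 14 of 18 in the untreated step and 17 of 18 in the XAV939 step, and the difference between these counts was not tested. T, which was not called in the untreated step with all libraries, rose by 5.25 in the XAV939 step (adjusted p = 1.5e-05). As given above, T was called higher in the untreated step without day 4 library 1. The edgeR test of all libraries without the block did not call a difference between its steps.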

How the data were processed

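Poly(A) RNA of 40 libraries was measured, of which the 4 untreated libraries of day 4 and the 4 of day 5 are described. Trizol extraction, TruSeq stranded libraries from 300 ng and paired 81 bp reads, aimed at 36 M per sample, are recorded per the labels' protocols. The genome build, mm10, and the use of bcl2fastq 2.20.0 come from the submitters' processing notes. How reads were aligned and counted, and with which strand setting, is not given in the sources used here. In the table deposited by the authors, values are raw counts, whole numbers per gene, with no normalisation. Gene symbols are those of the deposited table. Of the table's 26906 genes 26857 identifiers matched GENCODE M21, from which coordinates and the names of overlapping genes were taken.

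Genes were filtered with filterByExpr (minimum count 10, minimum total 15), scaled by TMM and fitted in R 4.3.3 (edgeR 4.0.16, limma 3.58.1) as 1 robust quasi-likelihood model of 10 group means (30 residual degrees of freedom, prior 5.19). The contrasts were day 5 minus day 4 in each arm and their difference. No library was a copy of another, as the chi-square per gene within a group was at least 23.6. On simulated counts of 16752 genes for the untreated step, 72% of 2-fold and 96% of 4-fold changes were recovered, and 6.67% of 180 calls were false. Only 200 genes were changed there, and counts were drawn independently around 1 mean per group. No simulated library was shifted across many genes, as the libraries numbered 1 were. These rates therefore do not measure how reliable the calls of the actual step are.

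The libraries, the 45 gene lists and the rule for named genes were chosen with earlier results of these data known. The rule takes the 10 largest rises and falls without overlap and at least 5 CPM, 2 to 4 members of each list by adjusted p, a panel of markers, and the genes that depend most on library 1 of either day. Members named beyond it, such as those whose promoters are printed, were chosen after their values were seen. Replicate numbers were checked as pairs across genes. Between day 4 and day 5 the correlations of same-numbered libraries were 0.355, 0.435, -0.0121 and 0.292, while differently numbered ones reached 0.366. Same-numbered libraries thus did not always stand out, and the days were not taken as paired. This choice is not clear-cut, and a replicate block gave more calls, as listed below. Between the arms the correlations of same-numbered libraries were 0.292 to 0.523 at day 4 and 0.155 to 0.377 at day 5. Differently numbered ones reached at most 0.164 at day 4 and 0.0942 at day 5, so the arms were taken as paired within a day. Alternatives were DESeq2 1.42.0, size factors by relative log expression, other filters, the 8 libraries alone, replicate blocks, and each library left out in turn.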

Additional observations from a re-analysis of the deposited data

Results flagged for a closer look

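In a group of 4 libraries a value was singled out when its gap to the nearest other library was past Dixon's 95% critical share of the group's range, which chance does for about 1 in 20 groups. Day 4 library 1 was high for T (550 CPM), Fgf5 (218 CPM), Mixl1 (167 CPM), Axin2 (120 CPM), Fgf8 (42.7 CPM), Foxa2 (31.9 CPM), Cdx2 (10.7 CPM) and Tbx6 (6.54 CPM), and low for Sox2 (5.82 CPM). Day 5 library 1 was high for Aldh1a2 (216 CPM), Cdx2 (119 CPM), Hoxb9 (75 CPM), Hoxb8 (31.2 CPM), Hoxaas3 (25.9 CPM) and Meox1 (18.8 CPM). It was also high for Sox2 at 30.2 CPM, where the other day 5 libraries lay within 0.2 CPM of each other. Day 5 library 2 was high for Cdh1 (419 CPM) and Nodal (56 CPM), and day 5 library 3 was high for Stum (10.4 CPM).

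Over the 1864 called genes with at least 5 CPM in the higher group, day 4 library 1 was singled out as high for 145 (7.78%) and as low for 30 (1.61%), and day 5 library 1 as high for 43 (2.31%). Each other library was singled out on either side for at most 19 of these genes.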

How the results depend on the processing

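With the day 4 and day 5 libraries of the same number as a replicate block in the fit of the 8 libraries alone, 2094 genes were higher and 2084 lower, and with the block in the fit of all 40 libraries 2211 and 1854. The 8 libraries without the block gave 1198 and 983. Requiring a log2 fold change of at least 1 left 1098 and 700. Leaving out single libraries gave 1265 to 2171 higher and 873 to 1726 lower genes. For the difference between the arms, DESeq2 gave 31 more positive and 6 more negative, the block within each day 71 and 11, and the 16 compared libraries alone with a block 1 and 0; leaving out single libraries gave 0 to 36 and 0.

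Of single genes and their differences between arms, relative log expression left 197 of 199 calls as they were, DESeq2 184 and no filter 189. With the block in the fit of all 40 libraries 11 results passed that did not without it, among them Axin2, Fgf8, Nodal and Wnt5b. No value changed sign under a block. Leaving out single libraries, the step of Eomes ran from -0.85 to 0.06 and that of Sox2 from -0.25 to 0.26, both with a changed sign without day 4 library 1. Without library 1 of both days Eomes was at 0.13, Sox2 -0.28, Fgf5 0.11, Pax6 -0.05, Egfr 0.01 and Tfcp2l1 0.01. Single leave-outs took Tfcp2l1 from -0.27 to 0.11, with its sign changed without day 4 library 2 (0.11) or day 5 library 3 (0.05), and mt-Nd1 from -0.42 to 0.04, changed without day 5 library 1. None of these was called. The causes were not tested.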

Other observations

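Of 18 imprinted genes, of which 1 parental copy is silent, 9 were higher and 3, Snrpn, Rian and Mirg, lower (median 1.11), or 10 and 4 without day 4 library 1 and 8 and 2 without day 5 library 1. Of all tested genes 10.5% were higher and 8.17% lower. Mest was at 189, 205, 240 and 293 CPM in day 4 libraries 1 to 4 and at 1080, 655, 1017 and 926 CPM at day 5. The days did not overlap, and Mest rose by 1.99 (edgeR, SE 0.237, adjusted p = 3.03e-07). Snrpn was at 168 to 263 CPM and then at 70.7 to 119 CPM, and fell by 1.27 (SE 0.164, adjusted p = 1.17e-06). Sgce rose by 1.27 (SE 0.157, adjusted p = 5.07e-07).

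Of 18 collagen and matrix genes 6 were higher and 1, Lama5, lower, or 5 and 0 without day 5 library 1; Lama5 kept its call only without day 4 library 4 or day 5 library 2 among the single leave-outs. Lama1, a laminin chain of early basement membranes, rose from 9.38 to 19.2 CPM up to 35 to 103 CPM (2.03, SE 0.259, adjusted p = 9.69e-07), and Col2a1, a collagen of notochord and cartilage, by 1.86 (SE 0.291, adjusted p = 2.09e-05). Of 16 cell cycle and Myc genes 4 were higher and 1, Ccne1, lower. Ccnd2, which encodes cyclin D2, was at 267 CPM in day 4 library 1, at 45.9 to 103 CPM in the others and at 343 to 698 CPM at day 5 (2.10, SE 0.433, adjusted p = 0.000654), or 2.80 without day 4 library 1. Hmga2, a chromatin protein and let-7 target, rose from 43.8 to 85.6 CPM up to 203 to 438 CPM (2.15, SE 0.268, adjusted p = 6.23e-07). Of 21 glycolysis and hypoxia genes 1, Vegfa, was higher and 2 lower, 14.3% against 18.7% of all tested genes. Without day 4 library 1 these counts were 1 and 4, and without day 5 library 1 they were 0 and 2. Slc16a3, a lactate carrier, fell by 1.11 (SE 0.267, adjusted p = 0.0028). With edgeR none of the 21 cytosolic ribosomal protein genes and none of the 10 tested genes of the mitochondrial genome was called, although Rpl4 and mt-Co1 passed in a fit of the 8 libraries with the replicate block.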
